A study of Mus musculus with 30 samples.

Results

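Proteasome genes were selected from the deposited gene tables of a cold-exposure study in mouse fat by their symbols: Psm followed by a letter from a to g and digits, with suffix letters allowed, plus the transcription factor gene Nfe2l1 and the assembly factor gene Pomp. The rule selected 52 of 21652 genes. By class they were 8 genes of the 20S alpha ring, 7 of the constitutive 20S beta ring, the 3 immunoproteasome subunits Psmb8, Psmb9 and Psmb10, the thymus subunit Psmb11, 6 ATPases and 3 other subunits of the 19S base, 8 subunits of the 19S lid, 8 assembly chaperones including Pomp, 6 activators and inhibitors, and Nfe2l1. Psmc3ip, a factor of meiotic recombination, matched by its name only and was counted but not treated as a subunit. The core is used below for the 14 genes Psma1 to Psma7 and Psmb1 to Psmb7, and the cap for the 17 subunit genes of the 19S base and lid.

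Polyadenylated RNA was sequenced from inguinal white adipose tissue (iWAT), a depot under the skin, and from brown adipose tissue (BAT), the heat-producing depot, of male C57BL/6J mice aged 7 to 8 weeks and kept 5 to a cage. Each tissue had 5 libraries from control mice kept at 22 °C and 5 for each of the cold exposures at 6 °C, which lasted 6 h or 24 h, so 30 libraries formed 6 groups, and no genotype or drug differed between them. The housing notes give a room temperature of 24 ± 2 °C, whereas the control labels say 22 °C. The comparisons ask how cold changed proteasome transcripts in each depot and whether the depots differed.

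The proteasome degrades proteins tagged with ubiquitin. Its 20S core is a barrel whose beta ring carries the proteolytic sites, and its 19S cap recognises, unfolds and feeds in the substrates. Interferon replaces the catalytic subunits encoded by Psmb5, Psmb6 and Psmb7 with those of Psmb8, Psmb9 and Psmb10, which favours peptides for antigen presentation. NFE2L1 is held at the endoplasmic reticulum and, when proteasome capacity falls short, is released by VCP, NGLY1 and DDI2 to switch on proteasome genes; in brown fat it is known for its part in proteasome activity during cold adaptation.

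The libraries held 25.3 to 41 M (M, 1e+06) assigned counts. Levels are given as CPM, counts per M assigned counts scaled by TMM factors (factors that equalise the bulk of genes between libraries), or, between genes, as the authors' FPKM, which divide by gene length. Marker sums matched the labelled depots: genes typical of brown adipocytes summed to 15261 ± 1412 CPM (mean ± SD, n = 5) in BAT and to 575 ± 499 in iWAT at 22 °C. Several libraries stood apart. In iWAT at 22 °C, replicate 4 was high in core genes, with a summed core of 1540 CPM against 1035 to 1112 in the others, and replicate 2 held 3482 CPM of skeletal muscle markers against 2.64 to 7.49. In BAT after 24 h, replicate 4 held 3801 CPM of interferon and antigen presentation genes against 1010 to 1336. Muscle markers summed to between 18.9 and 8964 CPM in the BAT libraries. Nothing in the labels says that replicates were separate animals, so p-values measure the spread between these samples, which may be technical. In bulk tissue, fewer cells of a type and less RNA per cell cannot be told apart.

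Promoter sequences are shown for Psmb5 and Psmb6, which hold the core of the antioxidant response element, the letters that NFE2L1 and its relatives recognise, and for Psmb8 and Psmb9, the immunoproteasome genes that take their place. RefSeq entries (GRCm38.p6) were matched by symbol for 44 of the 52 genes. The 120 bases before the transcription start are printed 5′ to 3′ on the gene's strand, and capitals mark matches to the motifs named next. They lie at chr14:54617996-54618115 (minus strand, Psmb5), chr11:70525237-70525356 (plus, Psmb6), chr17:34198075-34198194 (plus, Psmb8) and chr17:34187331-34187450 (minus, Psmb9).
Psmb5: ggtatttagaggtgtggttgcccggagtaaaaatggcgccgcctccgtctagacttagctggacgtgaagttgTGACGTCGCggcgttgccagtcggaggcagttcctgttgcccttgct
Psmb6: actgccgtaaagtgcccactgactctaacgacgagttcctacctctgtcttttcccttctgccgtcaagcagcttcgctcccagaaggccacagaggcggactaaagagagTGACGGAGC
Psmb8: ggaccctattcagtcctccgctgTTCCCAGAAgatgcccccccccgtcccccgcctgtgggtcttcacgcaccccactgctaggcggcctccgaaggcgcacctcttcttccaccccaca
Psmb9: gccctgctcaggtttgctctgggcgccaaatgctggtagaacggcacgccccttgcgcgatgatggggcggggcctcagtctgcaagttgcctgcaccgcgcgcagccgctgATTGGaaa

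On either strand of the 250 bases before the start, the response element core TGACNNNGC was found in 5 of the 44 promoters (11.4%), those of Psmb5, Psmb6, Psmc6, Psmd12 and Psmd9, and in 10.1% of 27025 mouse promoters of the same length. The CCAAT box was found in 16 (36.4%) against 34.5% of all promoters, 4 times in that of Nfe2l1. The STAT palindrome TTCNNNGAA was found in 2 (4.55% against 7.18%), Psmb8 and Psmg1, and the interferon-stimulated element pair in 3 (6.82% against 3.04%), Psmb3, Psmd4 and Psmd9. ATTGG is the CCAAT box read on the other strand. In the printed stretches no match overlaps that of another motif, and a match is a match of letters only. The element's share among proteasome promoters was thus near its share among all promoters.

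After 6 h in the cold, most core and cap genes of iWAT rose, while the immunoproteasome genes and Nfe2l1 did not pass the test. Of the 50 members tested, 30 rose and none fell at an adjusted p under 0.05 (edgeR's quasi-likelihood test, Benjamini-Hochberg over 13689 genes), against 12.9% of all genes called higher, 10.1% lower and 23% in either direction. Core genes rose in 12 of 14 cases with a median log2 fold change of 0.44, and cap genes in 15 of 17 with a median of 0.39, beside a median of -0.03 over all genes tested. All 8 genes of the lid, which carries the deubiquitinating subunit, rose (median 0.48). After 24 h the counts were again 30 members higher and none lower, against 12.8% of all genes higher, 10.1% lower and 23% either way, with 11 core genes (median 0.42), 16 cap genes (median 0.46) and all 8 lid genes higher. Between 24 h and 6 h no member was called by edgeR, against 0.00731% of all genes. None had an unadjusted p under 0.05 in that test, against 1351 of 13689 genes, and DESeq2 called none, against 46 of all genes higher and 76 lower.

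**Figure D1:**
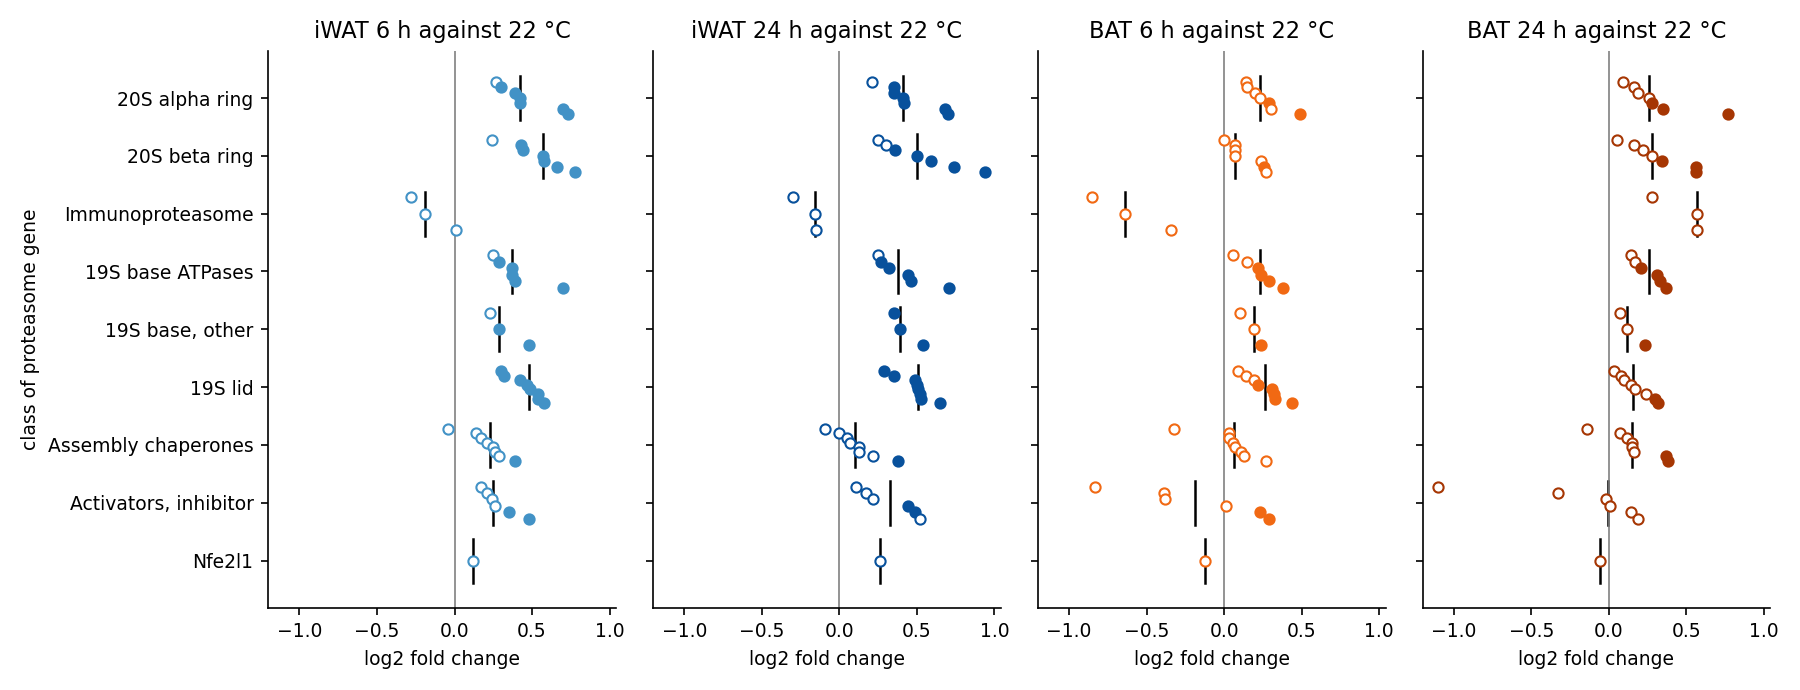
Log2 fold change of each tested proteasome gene by class (points; filled, adjusted p under 0.05; open, not called; black bars, class medians) for each cold time against 22 °C in iWAT and BAT. Filled points of the core and cap classes all lie above 0, and the immunoproteasome and Nfe2l1 points are all open.

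Psmb5, the chymotrypsin-like catalytic subunit, had the largest rise in iWAT at both times. Its levels were 53.2, 45.6, 46.5, 81.4 and 52.4 CPM at 22 °C, 120, 95.5, 65.9, 105 and 101 after 6 h, and 127, 126, 82.6, 98.9 and 108 after 24 h (replicates 1 to 5). The log2 fold change was 0.78 ± 0.17 at 6 h (± SE, adjusted p = 0.0073) and 0.94 ± 0.17 at 24 h (adjusted p = 0.00188). Replicate 4 at 22 °C lay above the lowest library after 6 h, so those groups overlapped, and at 24 h they did not. Psmb7, the trypsin-like subunit, lay at 49, 50.2, 57.2, 55.2 and 52.6 CPM at 22 °C, at 69.2, 75.4, 63.8, 101 and 91.7 after 6 h and at 98.5, 98.2, 77.4, 83.8 and 89.9 after 24 h. Every cold library was above every control library, with rises of 0.58 ± 0.11 and 0.74 ± 0.11 (adjusted p = 0.00432 and 0.000731). Psmb6, the caspase-like subunit, was at 66.5, 63.9, 62.2, 97.3 and 71.4 CPM, then 122, 100, 81.3, 86.3 and 107, then 96.7, 108, 71.7, 84.7 and 88.3. It rose at 6 h (0.44 ± 0.14, adjusted p = 0.0313) and was not called at 24 h (0.30 ± 0.14, adjusted p = 0.124), and its groups overlapped at both times.

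Outside the catalytic sites, the largest rises in iWAT were shared by both times. The alpha ring subunits Psma1 and Psma6 rose by 0.73 ± 0.13 and 0.70 ± 0.13 at 6 h (adjusted p = 0.00308 and 0.00326) and by 0.70 ± 0.13 and 0.68 ± 0.13 at 24 h. For both, replicate 3 after 6 h lay below replicate 4 at 22 °C, and the 24 h groups did not overlap with the controls. Psmc4, an ATPase of the base, rose by 0.70 ± 0.12 and 0.71 ± 0.12, from 43.7 to 53 CPM at 22 °C to 57.6 to 90 after 6 h and 62.3 to 86 after 24 h, with no overlap. Psmb3, a structural beta subunit, rose by 0.66 ± 0.16 at 6 h. By contrast only Psmg1 of the 8 assembly chaperones rose at each time (0.39 ± 0.12 and 0.38 ± 0.12). Pomp, which assists the maturing of the core, lay at 77.4, 73.3, 64.5, 96.4 and 77.1 CPM at 22 °C, at 106, 87.2, 73.9, 87.4 and 91.3 after 6 h and at 86.9, 93.4, 63.6, 81.1 and 82.4 after 24 h. Its groups overlapped and it was not called (0.17 ± 0.12 and 0.05 ± 0.12, adjusted p = 0.277 and 0.783).

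Markers of other cell types moved with the iWAT rise. Progenitor and fibroblast markers summed to 2576 to 4766 CPM at 22 °C, 1674 to 2891 after 6 h and 1515 to 2377 after 24 h, with 5 and 3 of 9 called lower in the cold. Endothelial markers summed to 333 to 623, 302 to 398 and 341 to 431 CPM, with 4 and 5 of 8 called lower, and macrophage and dendritic markers to 325 to 853, 299 to 599 and 376 to 594, with 3 and 0 of 10 lower. No marker of these lists was at 0 in any group. Brown adipocyte markers were higher in 4 and 5 of 7 genes tested, with sums of 136 to 1180, 755 to 5915 and 3098 to 5165 CPM and Zic1 at 0 after 24 h, and adipocyte markers in 3 and 1 of 7, with sums of 24976 to 34049, 30242 to 45762 and 27654 to 36302 CPM. Their part in the rise was not tested. Skeletal muscle markers were lower in 4 and 3 of 5 genes tested. At 22 °C they summed to 3482 CPM in replicate 2 and to 2.64 to 7.49 in the other controls. The cold libraries summed to 2.47 to 6.97 CPM after 6 h and 1.87 to 6.52 after 24 h, so the lower sum rested on 1 control library. With that list as a covariate 20 and 22 members rose, where 984 and 1370 of all 13689 genes were called higher. With the progenitor and fibroblast, endothelial, and macrophage and dendritic lists (the stromal lists) as a joint covariate, no member was called at either time. This alternative was chosen after seeing the data, and in it the median of core and cap genes was 0.31 at 6 h and 0.34 at 24 h in place of 0.42 and 0.44. The calls were lost across the transcriptome in that fit: of 13689 genes, 0 were called higher and 1 lower at 6 h, and 45 and 36 at 24 h. Without replicates 2 and 4 at 22 °C, 33 and 32 members rose, and without replicate 2 alone 19 rose at 24 h. Of all genes, 1729 and 1692 of 13999 were higher without both replicates, and 1262 of 13806 at 24 h without replicate 2. With limma on log2(FPKM + 1), where the median of all genes moved to -0.15, 14 members rose at 6 h and Psmb10 and Psmg2 fell. In that fit 575 of all 13689 genes were higher and 4324 lower.

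In BAT, fewer members passed the test and the rises were smaller with TMM factors. After 6 h, 15 of 50 members rose and none fell, against 12.5% of all genes higher, 10.2% lower and 22.7% either way (13090 genes tested). They held 3 of 14 core genes (median over the core 0.21), 10 of 17 cap genes (median 0.22) and the activators Psme3 and Psme4, beside -0.01 over all genes. After 24 h, 15 rose and none fell (12.8% of all genes higher, 10.4% lower, 23.1% either way), with 6 core genes (median 0.27), 7 cap genes (median 0.17) and the chaperones Psmg1 and Psmg2. Muscle markers summed to 278 to 8964 CPM at 22 °C, 18.9 to 1666 after 6 h and 23.7 to 4757 after 24 h, with 1 and 0 of 9 called lower and Tnnc2 at 0 in both cold groups. With the muscle list as a covariate, chosen after seeing the data, 5 of 50 members rose at 6 h and 10 at 24 h, where 1210 and 1295 of all 13090 genes were called higher. Brown adipocyte markers moved too, with 4 of 8 higher at each time and sums of 12935 to 16525 CPM at 22 °C, 19554 to 26914 after 6 h and 19265 to 22363 after 24 h, and their part in the result was not tested.

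Psma6 had the largest rise of BAT at both times. Its levels were 205, 189, 204, 201 and 213 CPM at 22 °C, 354, 268, 260, 274 and 276 after 6 h, and 392, 336, 371, 326 and 324 after 24 h. The groups in the cold did not overlap with the controls, with log2 fold changes of 0.49 ± 0.08 (adjusted p = 0.000389) and 0.77 ± 0.08 (adjusted p = 6.52e-06). Psmb5 lay at 96.9, 86.1, 85.7, 91.9 and 91 CPM, then 139, 86, 100, 122 and 91, then 158, 118, 142, 131 and 126. It was not called at 6 h (0.24 ± 0.11, adjusted p = 0.139), where its groups overlapped, and rose at 24 h without overlap (0.56 ± 0.11, adjusted p = 0.00157). Psmb7 went from 101, 92.3, 93.6, 101 and 101 CPM to 134, 106, 110, 137 and 105 and to 164, 149, 138, 139 and 138, called at 6 h (0.26 ± 0.08, adjusted p = 0.0291) and at 24 h (0.56 ± 0.08, adjusted p = 0.000121), with no overlap at either time. Psmb6, at 86.2 to 93.5, 79.5 to 114 and 86.6 to 107 CPM, showed fold changes of -0.00 ± 0.09 and 0.05 ± 0.09 and was not called. The 3 constitutive catalytic genes thus gave different results in the same libraries.

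Among the other rises of BAT were cap genes and an assembly chaperone. Psmd12, a scaffold subunit of the lid, rose by 0.44 ± 0.06 at 6 h (adjusted p = 0.000115) and 0.32 ± 0.06 at 24 h, and Psmc4 by 0.38 ± 0.10 and 0.37 ± 0.10. Psmd3 and Psmd13, also of the lid, rose by 0.33 ± 0.09 and 0.32 ± 0.07 at 6 h. Psmg2, a chaperone of the alpha ring, rose by 0.38 ± 0.09 at 24 h. Between 24 h and 6 h, 4 members rose (6.6% of all genes higher, 6.45% lower, 13% either way): Psmg2 (0.36 ± 0.09), Psmg1 (0.31 ± 0.09), Psmb7 (0.30 ± 0.08) and Psma6 (0.29 ± 0.08). That count was 7 without replicate 1 after 6 h, and 1 without replicate 2 or 5 after 6 h or replicate 1 after 24 h. Of all genes, 1032 were higher and 1198 lower in the first of these fits. In the other fits 686 and 592, 651 and 581, and 667 and 626 were called.

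**Figure D2:**
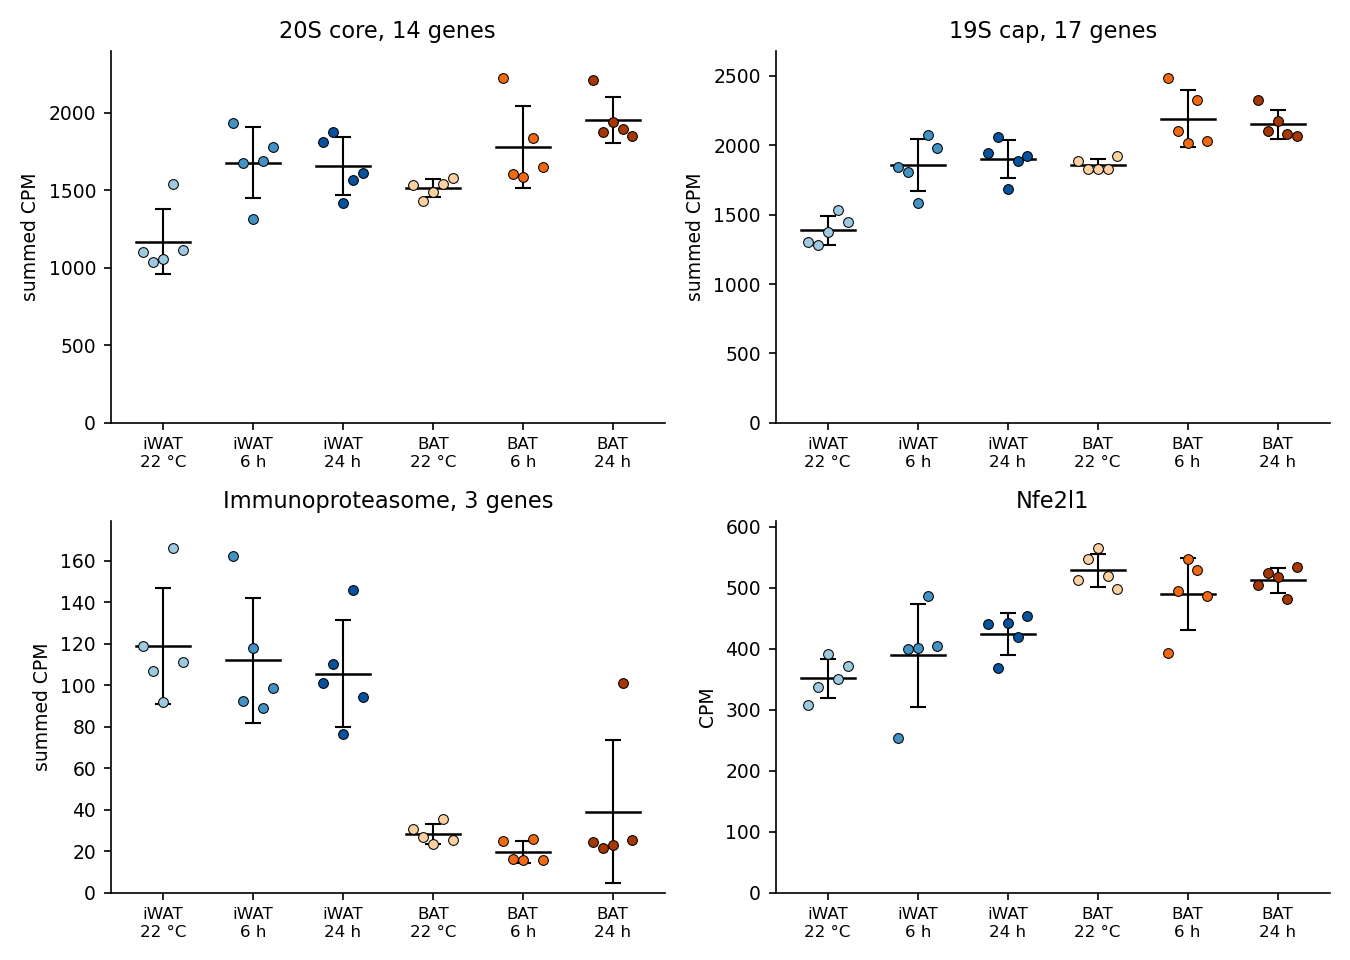
Summed CPM of core, cap and immunoproteasome genes and CPM of Nfe2l1 in each library (points, replicates 1 to 5 from left to right; bars, mean ± SD, n = 5). The core sum averaged 1169 CPM in iWAT at 22 °C and 1679 after 6 h, and the immunoproteasome sum was at most 35.6 CPM in every BAT library but replicate 4 at 24 h, which reached 101.

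Per gene length, the core genes did not lie at 1 level within a group. In iWAT at 22 °C, FPKM ranged from 20.1 ± 1.06 (SD, n = 5) for Psmb7 to 135 ± 18 for Psma6, and in BAT from 18.9 ± 0.772 for Psma7 to 141 ± 5.3 for Psma6, although every core particle holds the 14 products in equal number. Cap genes ranged from 12.9 ± 0.795 for Psmd11 to 78.2 ± 5.19 for Psmc1 in iWAT at 22 °C. The gene lengths implied by the deposited values span all exons of a gene, so levels between genes depend on that length as well. Psmb11, made in thymus, had no count in 3 to 5 of the 5 libraries of each group, and Psma8, made in testis, averaged 0.0236 to 0.221 CPM by group.

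The responses of the depots were set side by side, since their control libraries differ. All 15 members that rose in BAT at 6 h were among the 30 that rose in iWAT, so the shared genes were 100% of the BAT and 50% of the iWAT list. At 24 h, 14 were shared (93.3% and 46.7%), and Psmg2 was called in BAT only. The overlap over all genes called was not counted, so these shares are not read as a trait of proteasome genes. With TMM factors, 30 of the 31 core and cap genes had the larger fold change in iWAT at each time. Across these genes the correlation between depots was 0.40 at 6 h and 0.66 at 24 h (Pearson, genes are not independent replicates). The scaling bears on the count of 30. With limma on log2(FPKM + 1), the median difference of responses over all genes (BAT minus iWAT) moved from -0.0161 to 0.1282 at 6 h. At 24 h that median moved from -0.0074 to 0.1018. In the test of the difference itself, no member passed at 6 h by edgeR, against 9.4% of all genes (3.38% higher and 6.03% lower). An unadjusted p under 0.05 in that test was found for 13 of 51 members and for 3627 of 14089 genes. DESeq2 called 6 members, against 625 of all genes higher and 1228 lower. At 24 h, 2 members passed by edgeR, against 7.81% of all genes (2.96% higher and 4.85% lower).

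These 2 were lid subunits whose rise was larger in iWAT. Psmd11, which helps to hold the lid together, was at 56.7, 62.1, 66.1, 65.9 and 65.6 CPM in iWAT at 22 °C and 93.3, 96.3, 86.4, 93 and 88.3 after 24 h, and in BAT at 97.9, 101, 96.6, 100 and 100 and then 111, 100, 104, 103 and 93.3. The iWAT groups did not overlap and the BAT groups did, and the difference of responses was -0.49 ± 0.12 on the log2 scale (BAT minus iWAT, adjusted p = 0.0144). Psmd14, the deubiquitinating enzyme of the lid, was at 64.2, 62.5, 69.5, 80.4 and 72.4 CPM in iWAT at 22 °C and 97.9, 121, 89.5, 103 and 98.9 after 24 h, and in BAT at 81.6, 78.1, 78.8, 85.1 and 85.5 and then 89.1, 87.7, 86.8, 94 and 98.9. Neither depot's groups overlapped, and the difference of responses was -0.39 ± 0.12 (adjusted p = 0.0496), which was not called with upper-quartile factors (-0.33, adjusted p = 0.0817). The number of members called in this test depended on iWAT replicate 4 at 22 °C: without it, 14 passed at 6 h and 9 at 24 h. Calls over all genes rose as well. Without that library, 667 of 14195 genes were higher and 1506 lower at 6 h, in place of 476 and 849 of 14089. At 24 h these were 536 and 1105, in place of 417 and 683. At 6 h, 10 passed without iWAT replicate 3 or BAT replicate 1 of that time, and 2 without iWAT replicate 1 or BAT replicate 4. Of all genes, 627 were higher and 1238 lower without iWAT replicate 3, and 587 and 1334 without BAT replicate 1. Without iWAT replicate 1 they were 350 and 841, and without BAT replicate 4 they were 424 and 756. At 24 h, 14 of the other single libraries left 1 call when taken out, and with both iWAT replicates 2 and 4 at 22 °C left out 10 and 5 passed. In that last fit 517 of 14308 genes were higher and 1179 lower at 6 h, and 419 and 884 at 24 h.

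**Figure D3:**
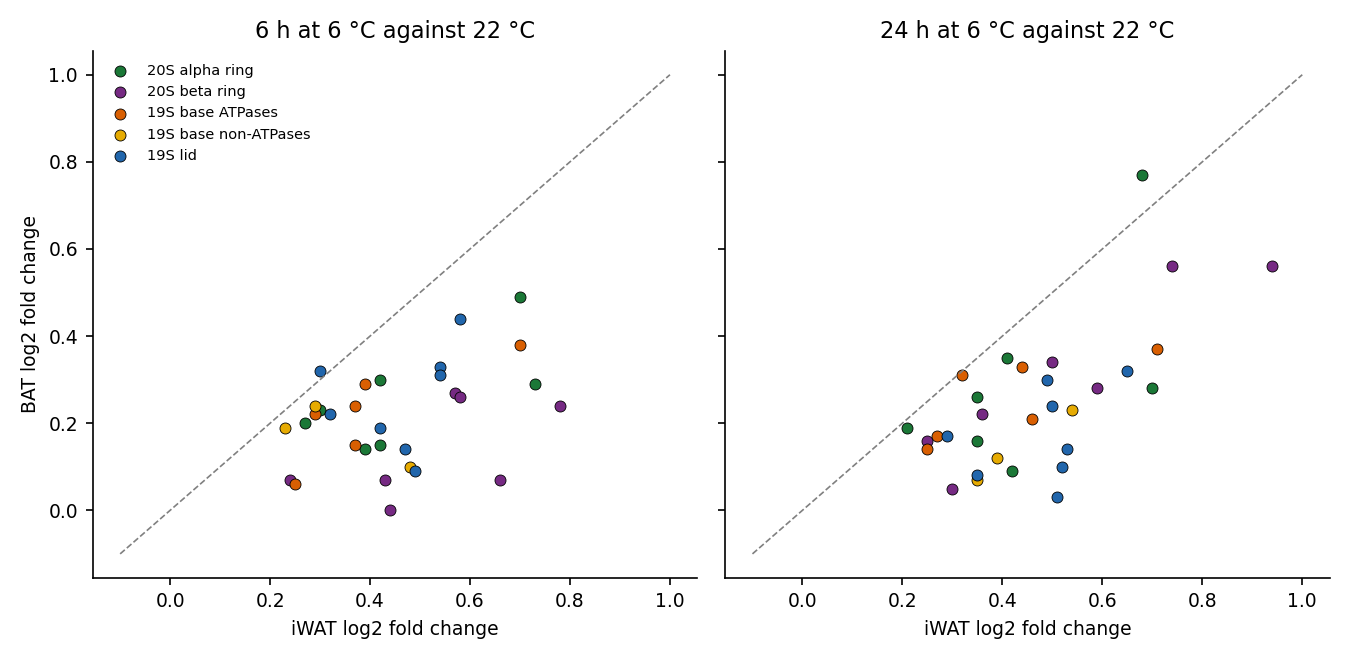
Log2 fold change of the 31 core and cap genes in BAT (vertical) against iWAT (horizontal) after 6 h and 24 h at 6 °C, coloured by class, with a dashed line of equal change. With these fold changes, which use TMM factors, 30 of the 31 points lie below the line in each panel.

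At 22 °C, 31 members were higher and 5 lower in BAT than in iWAT, against 32.4% and 34.5% of 14089 genes and 66.9% called in either direction. The core was higher in 10 of 14 genes and the cap in 14 of 17, with medians of 0.33 and 0.35. The largest differences toward BAT were those of Psmc4 (1.14 ± 0.12), Psme4 (1.06 ± 0.10), Psmc3ip (1.01 ± 0.25), Psmd8 of the lid (0.92 ± 0.11) and Psmb7 (0.89 ± 0.10). Toward iWAT, the 3 immunoproteasome genes described below and Pomp (-0.25 ± 0.11) were called. Psma8 was called too, with the largest fitted value (-3.05 ± 1.22), but lay near the floor at 0.22 and 0.0236 CPM on average. It had 46 counts over all iWAT and 3 over all BAT libraries at 22 °C, and was too low to be tested within either depot. Neither Psma8 nor Pomp was called in every fit with 1 library left out. The directions of the core and cap rest on the scaling: with limma on FPKM, where the median of all genes moved to -0.34, 7 members were higher and 34 lower in BAT, with core and cap medians of -0.25 and -0.24. In that fit 1966 of all 14089 genes were higher and 9302 lower. Relative to the median of all genes the core stood at 0.37 with TMM and at 0.09 with FPKM. With upper-quartile factors, which moved the median of all genes to -0.23, 19 were higher and 11 lower (3516 and 6254 of all genes). After 6 h in the cold, 16 were higher and 10 lower (32.6% of all genes higher, 33.7% lower, 66.2% in all), and after 24 h 19 and 6 (31.6%, 32% and 63.6%). With FPKM these splits turned to 3 and 30 (2350 and 7276 of all genes) and to 5 and 32 (2134 and 7800). Upper-quartile factors gave 11 and 16 (3755 and 5634 of all genes) and 13 and 15 (3699 and 5448). Without BAT replicate 1 the split at 6 h was 13 and 14 (4413 and 4822 of 14222 genes).

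Psme4, the activator of the core that works without ubiquitin, was higher in BAT under each scaling tried. It lay at 66.2, 74.8, 76.8, 81.9 and 68 CPM in iWAT at 22 °C, 79.2, 89.2, 85.6, 126 and 97.9 after 6 h, and 112, 105, 102, 102 and 98.7 after 24 h. In BAT it lay at 135, 152, 161, 147 and 169, then 176, 187, 195, 201 and 184, then 180, 173, 191, 149 and 192. The depots did not overlap at any time, and differed by 1.06 ± 0.10, 0.98 ± 0.10 and 0.76 ± 0.10 (adjusted p = 1.4e-10, 6.62e-10 and 6.99e-08). On FPKM the differences were 0.42, 0.56 and 0.30. Within iWAT it rose by 0.35 ± 0.11 and 0.49 ± 0.11, and within BAT by 0.29 ± 0.08 at 6 h.

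Nfe2l1 was not called in the cold in either depot. It was at 308, 337, 391, 350 and 372 CPM in iWAT at 22 °C, 254, 400, 401, 487 and 404 after 6 h, and 440, 368, 443, 419 and 453 after 24 h, with fold changes of 0.12 ± 0.14 and 0.26 ± 0.14 (adjusted p = 0.523 and 0.179). In BAT it was at 513, 547, 565, 520 and 498, then 393, 495, 547, 529 and 486, then 504, 524, 518, 482 and 534, with -0.12 ± 0.08 and -0.06 ± 0.08 (adjusted p = 0.274 and 0.608). The cold groups overlapped with their controls throughout, and replicate 1 after 6 h was the lowest of its group in each depot. BAT was higher than iWAT by 0.59 ± 0.11, 0.33 ± 0.11 and 0.27 ± 0.11 at 22 °C, 6 h and 24 h (adjusted p = 3.97e-05, 0.0105 and 0.0357), but on FPKM these differences were -0.01, -0.04 and -0.17 and were not called.

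Of 15 genes for the processing, degradation and partners of NFE2L1, 2 were called in iWAT at 6 h, 3 at 24 h, and 2 at each time in BAT, beside 22.7% to 23.1% of all genes called. In iWAT, Syvn1, a ligase of the endoplasmic reticulum, rose at 6 h (0.27 ± 0.09) and Bach1, a repressor at the same response elements, fell (-0.28 ± 0.09); at 24 h Maff, a small partner protein, rose by 0.93 ± 0.21, Ngly1 by 0.34 ± 0.09, and Btrc, which marks NFE2L1 for degradation, fell by 0.43 ± 0.10. In BAT, Maff rose by 1.69 ± 0.20 and 1.83 ± 0.20 (adjusted p = 2.11e-05 and 8.01e-06), from 4.44 ± 1.44 to 14.5 ± 2.38 and 16 ± 3.5 CPM. Btrc fell in BAT at 6 h (-0.52 ± 0.11) and Sel1l, of the same ligase complex as Syvn1, at 24 h (-0.22 ± 0.07). The rise of Maff at 6 h was larger in BAT, with a difference of responses of 1.14 ± 0.30 (adjusted p = 0.0164). Between depots, 4 of the 15 genes were higher and 3 lower in BAT at 22 °C, 4 and 5 at 6 h, and 3 and 7 at 24 h. Of all genes, 32.4% were higher and 34.5% lower at 22 °C, 32.6% and 33.7% at 6 h, and 31.6% and 32% at 24 h. Among those higher was Ddi2, the protease that frees NFE2L1, at each time with TMM factors (0.68 ± 0.15, 0.76 ± 0.15 and 0.51 ± 0.15).

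Of 25 genes that supply ubiquitin or deliver its targets to the proteasome, 13 rose and none fell in iWAT at 6 h, and 15 rose and none fell at 24 h, with medians of 0.28 and 0.30, beside 12.9% and 12.8% of all genes higher. Adrm1, the ubiquitin receptor of the cap, rose by 0.50 ± 0.08 at 6 h. Nploc4 and Ufd1, cofactors of VCP, rose by 0.48 ± 0.09 and 0.47 ± 0.08 at 6 h, and Usp14, a deubiquitinase bound to the cap, by 0.45 ± 0.10 at 24 h. In BAT, 8 rose and 1 fell at 6 h, and 4 rose and 2 fell at 24 h (medians 0.11 and 0.08), beside 12.5% and 12.8% of all genes higher and 10.2% and 10.4% lower, so the 24 h count was near that of all genes. The shuttle factor Ubqln1 rose by 0.46 ± 0.05 and 0.39 ± 0.05 there and its relative Ubqln2 fell by 0.34 ± 0.10 and 0.32 ± 0.10. The mean of Sqstm1, the receptor that carries tagged proteins to autophagy, moved in opposite directions in the depots. In iWAT it went from 187 CPM at 22 °C (169 to 209) to 222 (210 to 236) and 232 (213 to 268). In BAT it went from 188 (167 to 203) to 157 (127 to 199) and 153 (142 to 164), so the BAT libraries at 6 h overlapped with their controls. The difference of responses (BAT minus iWAT) was -0.50 ± 0.14 at 6 h and -0.60 ± 0.14 at 24 h (edgeR, adjusted p = 0.0207 and 0.0076).

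The immunoproteasome genes behaved differently from the core: none of the 3 was called by cold in either depot, and all 3 were lower in BAT than in iWAT at every time. Psmb8 was at 59.6, 54.9, 43.9, 84.3 and 51.1 CPM in iWAT at 22 °C, 92.8, 48.7, 61.6, 44.8 and 52.7 after 6 h, and 51.8, 53.2, 35.9, 81.5 and 43.1 after 24 h. In BAT it was at 12.1, 12.1, 8.41, 16.3 and 10.9, then 11.4, 4.71, 5.97, 10.2 and 6.63, then 10.5, 7.59, 9.31, 51.4 and 10.2. Except for replicate 4 after 24 h, every BAT library was below every iWAT library. The differences between depots were -2.30 ± 0.39, -2.95 ± 0.40 and -1.57 ± 0.38 (adjusted p = 8.81e-06, 3.11e-07 and 0.000747), and without that replicate the last was -2.49.

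Psmb9 lay at 28.7, 24.1, 19.4, 37.9 and 25.7 CPM in iWAT at 22 °C, at 35.1, 16.5, 24.7, 19 and 17.9 after 6 h and at 19.9, 23.3, 16.4, 33.2 and 19 after 24 h. In BAT it lay at 5.77, 3.61, 4.35, 6.63 and 4.05, then 3.52, 2.23, 2.04, 3.93 and 1.96, then 3.17, 3.45, 3.37, 22.8 and 3.37. The depots differed by -2.48 ± 0.42, -3.06 ± 0.44 and -1.62 ± 0.40 (adjusted p = 7.96e-06, 6.35e-07 and 0.000994), and by -2.74 at 24 h without replicate 4. Psmb10 was at 30.4, 27.7, 28.3, 43.4 and 34.2 CPM in iWAT at 22 °C, 33.9, 27, 31.6, 25.2 and 28.3 after 6 h, and 29, 33.2, 24.3, 30.8 and 32.4 after 24 h. In BAT it was at 13, 11.1, 10.5, 12.7 and 10.4, then 9.77, 9.49, 7.8, 11.9 and 7.04, then 10.8, 10.8, 10.2, 26.9 and 11.6. Its differences were smaller, at -1.51 ± 0.20, -1.67 ± 0.20 and -1.09 ± 0.20 (adjusted p = 1.53e-07, 3.33e-08 and 2.38e-05), and -1.46 at 24 h without replicate 4. As for Psmb8, replicate 4 was the one BAT library within the iWAT range for Psmb9 and Psmb10.

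**Figure D4:**
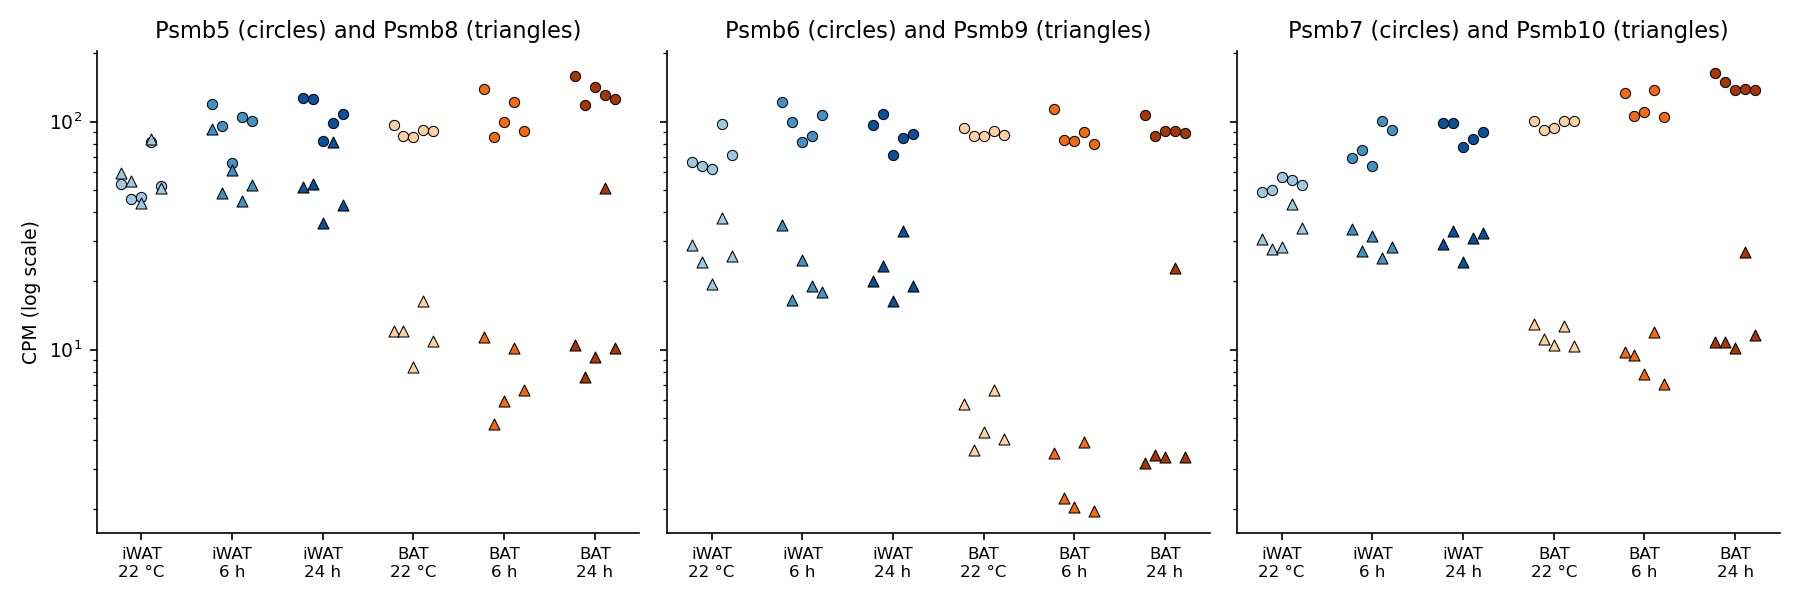
CPM (log scale) of the constitutive catalytic genes (circles) and of the immunoproteasome genes that replace them (triangles) in each library, by group. Psmb5 and Psmb8 lie at like CPM in iWAT at 22 °C, while in BAT the triangles lie far below the circles except in replicate 4 at 24 h (51.4, 22.8 and 26.9 CPM).

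Within BAT, the direction at 24 h turned with that 1 library. At 6 h the fold changes were -0.64 ± 0.46, -0.85 ± 0.51 and -0.34 ± 0.24 for Psmb8, Psmb9 and Psmb10 (adjusted p = 0.344, 0.249 and 0.335). In a fit of the 2 groups only, which leaves out the 24 h libraries, the adjusted p were 0.0678, 0.0231 and 0.0927, so Psmb9 passed. At 24 h the values were 0.57 ± 0.45, 0.57 ± 0.50 and 0.28 ± 0.24, and without replicate 4 they were -0.37, -0.57 and -0.11, none of them called. In iWAT the fold changes were 0.01 ± 0.23, -0.28 ± 0.23 and -0.19 ± 0.12 at 6 h and -0.16 ± 0.23, -0.30 ± 0.23 and -0.15 ± 0.12 at 24 h.

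The immunoproteasome made up a smaller share of the catalytic genes in cold iWAT than in its controls, while its own summed CPM was 119 ± 28, 112 ± 30.1 and 105 ± 25.5 and that of Psmb5, Psmb6 and Psmb7 was 181 ± 30.2, 277 ± 39.8 and 288 ± 41.1 at 22 °C, 6 h and 24 h. Psmb8, Psmb9 and Psmb10 made up 27.5 ± 1.13% (SD, n = 5) of the summed FPKM of the 6 catalytic genes in control iWAT, 18.3 ± 4.04% at 6 h and 16.9 ± 3.04% at 24 h. The control libraries ranged from 25.6 to 28.4%, the 6 h libraries from 14.7 to 24.3% and the 24 h libraries from 14.5 to 22.2%, so neither cold group overlapped with the controls. In BAT the shares were 6.16 ± 0.709%, 3.99 ± 0.485% and 5.92 ± 4.35%, where the last group spans 3.55 to 4.48% in 4 libraries and 13.7% in replicate 4. By site, in iWAT at 22 °C Psmb10 held 55.1 ± 4.3% of its pair with Psmb7, Psmb8 held 21.9 ± 1.71% of its pair with Psmb5, and Psmb9 held 16 ± 1.58% of its pair with Psmb6. With CPM in place of FPKM these shares were 38.1%, 51.3% and 27.2%, so the order of Psmb10 and Psmb8 depended on the division by length. On the CPM scale, which does not divide by length, the shares of all 6 genes were 39.4%, 28.7% and 26.7% in iWAT and 9.25%, 5.81% and 9.11% in BAT, and 1 library after 6 h in iWAT (35.8%) then lay above the lowest control (35.6%).

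Genes of the interferon response and antigen presentation were lower in BAT as well. Of 19 tested, 18 were lower at 22 °C and at 6 h and 12 at 24 h, with none higher and medians of -1.32, -1.60 and -0.84, beside 34.5%, 33.7% and 32% of all genes lower. The 24 h values include BAT replicate 4, whose list sum was 3801 CPM. The other BAT libraries at 24 h summed to 1010 to 1336 CPM, and those at 22 °C to 1243 to 1659. H2-D1 and H2-K1, which present peptides, were lower by -2.22 ± 0.21 and -2.19 ± 0.23 at 22 °C, and their partner B2m by -2.22 ± 0.30. Nlrc5, which drives such genes, was lower by -2.10 ± 0.35. Leukocyte markers summed to 52 to 114 CPM in iWAT and 25.3 to 35 in BAT at 22 °C, with 5 of 5 lower in BAT, and macrophage and dendritic markers to 325 to 853 and 145 to 248, with 10 of 10 lower. T cell markers summed to 5.36 to 11.9 and 3.24 to 5.58 CPM, with 3 of 7 tested lower. B cell and lymph node markers summed to 2.07 to 10.1 and 1.81 to 3.5 CPM, with 0 of 6 tested lower. None of these markers was at 0 in a group, and their part in the difference was not tested.

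**Figure D5:**
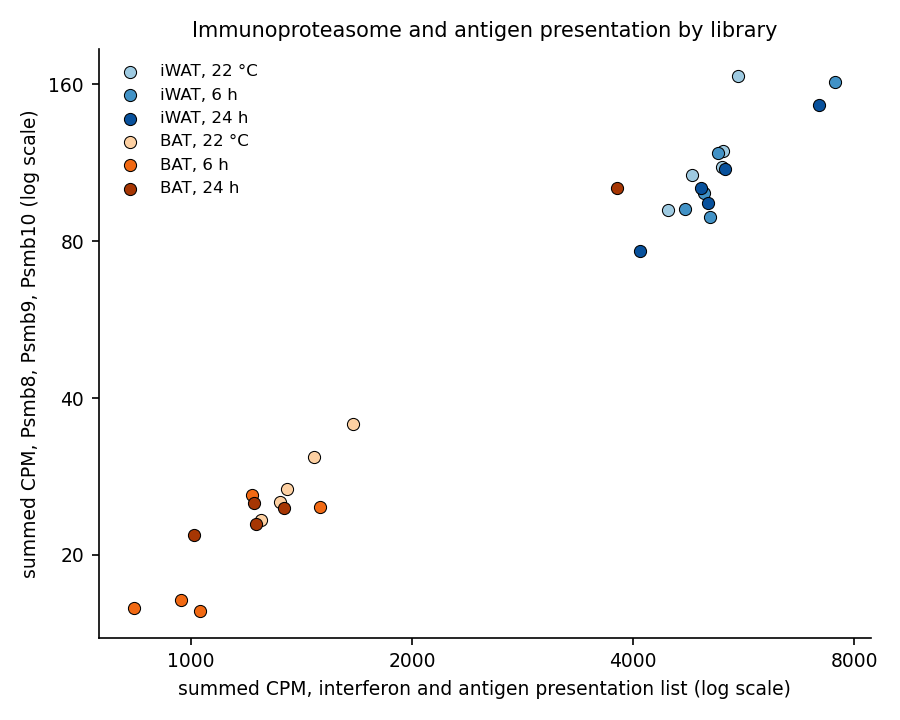
Summed CPM of Psmb8, Psmb9 and Psmb10 (vertical) against the summed CPM of 20 interferon and antigen presentation genes (horizontal) in each library, on log scales. The iWAT libraries lie at the upper right and the BAT libraries at the lower left, and replicate 4 of BAT at 24 h (3801 and 101 CPM) lies near the iWAT libraries.

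In the cold, where 10.1% to 10.4% of all genes fell in each comparison with 22 °C, 1 of 19 genes fell in iWAT at each time, Irf1 at 6 h (-0.41 ± 0.13) and Cxcl10 at 24 h (-0.41 ± 0.13). In BAT, Cxcl9 (-1.43 ± 0.43) and Tap2, a peptide transporter (-0.94 ± 0.26), fell at 6 h, and Erap1, which trims peptides, at 24 h (-0.73 ± 0.21). Within each group except BAT at 6 h, the library with the highest immunoproteasome sum also had the highest list sum. In iWAT these were 166 and 5550 CPM in replicate 4 at 22 °C, 162 and 7545 in replicate 1 at 6 h, and 146 and 7156 in replicate 4 at 24 h. In BAT they were 35.6 and 1659 CPM in replicate 4 at 22 °C, and 101 and 3801 in replicate 4 at 24 h. In BAT at 6 h, replicate 4 had the highest immunoproteasome sum (26 and 1209 CPM) and replicate 1 the highest list sum (24.7 and 1496 CPM). Across groups the order differed: the highest immunoproteasome sum of all libraries, 166 CPM, stood beside a list sum below 7156 and 7545. In BAT replicate 4 at 24 h, leukocyte markers summed to 61.7 CPM against 19.3 to 29.9 in its group, and macrophage and dendritic markers to 397 against 160 to 252. Their part in its immunoproteasome level was not tested.

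The interferon-inducible activator genes Psme1 and Psme2, whose products cap the core in place of the 19S, lay between the 2 patterns. Psme1 was at 64.5, 73.1, 67.9, 101 and 67 CPM in iWAT at 22 °C, 120, 80.4, 73.8, 81.3 and 90.9 after 6 h, and 90.9, 92.6, 75.3, 99.2 and 82.7 after 24 h, and in BAT at 62.7, 55.6, 62.9, 73.3 and 63.6, then 59.2, 44.1, 40.1, 58.7 and 45.3, then 59.6, 52.2, 56.3, 97.9 and 50.6. The depots overlapped at 22 °C, where the gene was not called (-0.23 ± 0.16, adjusted p = 0.2), and not at 6 h, where BAT was lower (-0.85 ± 0.16, adjusted p = 3.96e-05). Psme2 was at 112, 109, 103, 171 and 108 CPM in iWAT at 22 °C, 167, 141, 133, 142 and 151 after 6 h and 148, 150, 114, 145 and 130 after 24 h, and in BAT at 105, 100, 107, 116 and 105, then 97.9, 70.1, 69.8, 97.4 and 76.7, then 78.4, 70.5, 72.7, 136 and 70.9. It too was lower in BAT at 6 h (-0.83 ± 0.15) and 24 h (-0.68 ± 0.15), and not called at 22 °C (-0.18 ± 0.15, adjusted p = 0.305). On FPKM both were lower in BAT at 22 °C too (-0.80 and -0.74).

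Neither activator was called by cold. In BAT at 6 h, Psme1 and Psme2 changed by -0.38 ± 0.16 and -0.39 ± 0.16 (adjusted p = 0.111 and 0.103), and in the fit of the 2 groups only the adjusted p were 0.0302 and 0.0173. The 5 BAT libraries after 6 h were all below those at 22 °C for Psme2. At 24 h, Psme2 fell by 0.57 without replicate 4 (adjusted p = 0.000943) and was not called with it (-0.33 ± 0.16, adjusted p = 0.171). Psme2b, a near-identical retrocopy of Psme2, was at 0.359 to 0.777 CPM on average, and reads of the pair may have been split. Psmf1, an inhibitor of the core, was lower in BAT at 6 h and 24 h (-0.35 ± 0.08 and -0.28 ± 0.08) and was not called by cold.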

How the data were processed

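Gene counts and FPKM of 30 libraries (6 groups of 5) were deposited by the authors for 21652 genes. Per the submitters' processing notes, HISAT2, HTSeq and GRCm39 were used; versions and strand handling are not given in the sources used here. The deposited FPKM equal each count divided by a fixed gene length and the library's total. The proteasome genes, pathway lists and marker lists were chosen with earlier results of these data known.

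Counts were fitted with edgeR 4.0.16 (R 4.3.3): filterByExpr with a minimum count of 10, TMM factors, quasi-likelihood tests and Benjamini-Hochberg adjustment over all genes tested, called at an adjusted p under 0.05. Each tissue's 15 libraries were fitted together for the cold comparisons and all 30 for the depots and the differences of response, 11 comparisons in all. CPM are TMM-scaled. Each library held 25.3 to 41 M assigned counts, so at the levels of most proteasome genes counting error is small beside the spread between libraries; intervals from counts would cover counting error only. No replicate pair within a group was a duplicate (chi-square per degree of freedom of 14 to 181 over 60 pairs).

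Genes were named by rule: 11 genes in every sample (Nfe2l1, Pomp, Psmb5 to Psmb10, Psme1, Psme2, Psme4), the 5 largest called rises and falls of each comparison, and the 4 largest called changes of each pathway list. Of the genes selected in this way, 1 is not reported here. Other genes named, such as Psmf1, were chosen after their values were seen. Alternatives were other scalings, DESeq2 1.42.0, other filters, limma 3.58.1 on log2(FPKM + 1) and log2(FPKM + 0.1), a replicate block, fits of the groups compared only, and each library left out; marker covariates and the joint removal of replicates 2 and 4 of iWAT at 22 °C were added after seeing the data. On simulated counts with 200 changed genes, the iWAT 6 h comparison recovered 75% of genes changed by 1 on the log2 scale and 30.3% of those changed by 0.5, with 3 false calls among 108. The counts were drawn from the same kind of model as was fitted, and the real comparison called 3148 genes. The shares recovered and the false calls may therefore not carry over to the data. Promoters were read from RefSeq (GRCm38.p6) and no coordinates were mixed with the counts' build. Python 3.11.15, pandas 2.3.3 and matplotlib 3.10.9 made the tables and plots.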

Additional observations from a re-analysis of the deposited data

Results flagged for a closer look

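In 12 of 84 groups of 5 libraries checked, 1 library stood apart from the rest by Dixon's criterion (gap over range above 0.71), where chance gives about 1 in 20 groups. Replicate 4 of iWAT at 22 °C was high for Psmb5 (81.4 CPM against 45.6 to 53.2), Psmb6 (97.3 against 62.2 to 71.4), Psme1 (101 against 64.5 to 73.1), Psme2 (171 against 103 to 112) and the summed core (887 FPKM against 659 to 710). Replicate 4 of BAT after 24 h was high for Psmb8 (51.4 CPM against 7.59 to 10.5), Psmb9 (22.8 against 3.17 to 3.45), Psmb10 (26.9 against 10.2 to 11.6), Psme1 (97.9 against 50.6 to 59.6), Psme2 (136 against 70.5 to 78.4) and the summed immunoproteasome (32.7 FPKM against 7.97 to 9.28). Replicate 1 of BAT after 24 h was high for Psmb6 (107 CPM against 86.6 to 91.3).

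The 24 h cold response differed between the depots for Psmd11 by -0.49 ± 0.12 and for Psmd14 by -0.39 ± 0.12 on the log2 scale (BAT minus iWAT, edgeR's quasi-likelihood test, adjusted p = 0.0144 and 0.0496).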

How the results depend on the processing

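The 30 members called in iWAT, all higher, became 16 (14 higher, 2 lower) at 6 h and 19 or 18, all higher, at 24 h with limma on FPKM (pseudocount 1 or 0.1), and 0 at both times with the stromal lists as covariate; leaving out 1 library gave 20 to 37 and 19 to 36, and 19 genes were called in every such fit at each time. In BAT the 15 members at 6 h became 5 with the muscle covariate (10 to 16 with 1 library left out), those at 24 h became 10 with the muscle covariate, 20 with the replicate block and 22 with FPKM (11 to 16 with 1 library left out), and the 4 between 24 h and 6 h became 7 with FPKM, 2 with 2 groups only, 1 with the stromal covariate, and 1 to 7. Between depots, the split of higher and lower turned with FPKM to 7 and 34 of 41 at 22 °C, 3 and 30 of 33 or 3 and 31 of 34 at 6 h, and 5 and 32 of 37 at 24 h, and with upper-quartile factors to 11 and 16 of 27 and to 13 and 15 of 28 at 6 h and 24 h; with 1 library left out the counts ranged over 32 to 36, 22 to 28 and 23 to 27, and the 6 h split turned without BAT replicate 1 (27 called). Members with a different response between depots numbered 2 with RLE factors, 6 with DESeq2, 10 without both iWAT replicates 2 and 4, and 0 to 14 at 6 h; at 24 h they numbered 1 with upper-quartile factors or no filter, 4 with DESeq2, 3 (2 of them higher) with FPKM, 5 without both replicates, and 1 to 9. On FPKM, Nfe2l1 turned to -0.01, -0.04 and -0.17 between depots and Psmb6 to -0.28 at 22 °C and -0.37 or -0.38 at 24 h. The numbers of all genes called moved in these fits as well, as given above for several of them. The cause of these shifts was not tested.

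Replicate numbers were not taken to pair the samples, since no pair of groups had every same-numbered correlation over 0.1: correlations of same-numbered libraries ranged from -0.534 to 0.458, and in 1 of 9 pairs of groups (iWAT and BAT at 24 h) 5 of 5 libraries correlated best with their own number, a hint from the data and not from the design. A replicate block gave 30, 30 and 0 calls in iWAT, 18, 20 and 6 in BAT, 37, 29 and 27 between depots, and 8 in place of 0 and 3 in place of 2 for the differences of response at 6 h and 24 h. Of single-gene results called, 645 held under other settings, 55 were lost and 8 turned.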
